A study of Mus musculus with 6 samples.

Results

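The Myc, Max and Mxd network is a set of transcription factors that share a basic helix-loop-helix leucine zipper and compete for one another and for the same DNA. Its 10 genes examined here (Myc, Mycn, Max, Mxd1, Mxd3, Mxd4, Mxi1, Mnt, Mlx and Mga) were taken by symbol from the 23358 genes of the deposited table. All 10 were found and all 10 were abundant enough to test. They were measured by RNA-seq of total RNA in calvaria, the bones that roof the skull, from mice aged 2 to 3 days. There were 3 libraries labelled wild type (WT, Ezh2_WT_Osx) and 3 labelled Ezh2 conditional knockout (cKO, Ezh2_cKO-Osx), and the comparison asks how the network's transcripts differ in bone when Ezh2, the catalytic subunit of Polycomb repressive complex 2, is lost in the osteoblast lineage. Osx stands in both labels and is the former symbol of Sp7, which osteoblast precursors need. Whether the WT mice carried an Osx-driven recombinase is not given in the sources used here, nor is the deleted part of Ezh2. All bones were digested with collagenase type II and trypsin for 20 minutes before freezing.

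Libraries are named by group and label number, 14, 27 and 29 for WT and 8, 10 and 37 for cKO. The gene counts summed to between 60449016 and 95439578 per library. Ezh2 itself did not separate the labels, at 20.4 to 21.7 CPM (counts scaled to library size) in WT and 19.2 to 20.6 in cKO (log2 fold change -0.07 ± 0.07, edgeR adjusted p = 0.507). Its counts cover the whole gene, so a partial deletion need not show in them. Why the Ezh2 counts did not separate the labels was not tested. Each direction below rests on the labels. The labels do not say that libraries came from separate animals, and the p-values measure only the spread between these libraries, which may be technical. Every fold change is cKO over WT with its standard error, and a gene is said to have risen or fallen only where the adjusted p of the edgeR quasi-likelihood test over all 16089 genes tested was below 0.05. CPM use TMM factors, and means are given with their SD (n = 3 libraries per group).

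Myc and Mycn bind DNA only when paired with Max, and the pair recognises the E-box and recruits histone acetyltransferases to genes of ribosome assembly, metabolism and division. Mxd1, Mxi1, Mxd3, Mxd4 and Mnt also pair with Max at the same sites, but bring in the Sin3 corepressor, and several of them are known to accumulate as cells leave the cell cycle. Mga is a very large Max partner that belongs to a variant Polycomb repressive complex 1, and Mlx is a Max-like protein that pairs with the glucose-sensing factors Mlxip (MondoA) and Mlxipl (ChREBP) as well as with some Mxd proteins and Mnt.

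The E-box that all these dimers read, CACGTG, was looked up in the RefSeq promoter windows of build GRCm38.p6, for which mm10 is another name, each running from 250 bases before to 50 bases after a gene's start. The motif is its own reverse complement, so one search covers both strands. Of the 9 members with a window, 4 held it, and Mga, Mxd1, Mxd3, Mxi1 and Mycn did not. Of all 27025 genes with a window, 8.1% held it, and of the 11164 tested genes with a window 11.2%. The median GC content was 63% for the members' windows and 52.7% for all windows, and what this does to the shares was not tested. The 4 sites are shown, with 12 bases on each side where the window allows and the E-box in capitals, because they are sites within the network's own promoters that its dimers could read.
Max, chr12:76962234-76962263, minus strand: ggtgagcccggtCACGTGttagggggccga
Mlx, chr11:101087238-101087267, plus strand: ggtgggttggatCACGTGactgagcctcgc
Mnt, chr11:74830789-74830818, plus strand: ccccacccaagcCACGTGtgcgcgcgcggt
Mxd4, chr5:34187912-34187941, minus strand: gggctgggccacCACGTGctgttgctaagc
The E-box began 3 bases before the annotated start in Max, 40 in Mlx, 123 in Mnt and 219 in Mxd4. None of these 4 genes passed the threshold in either direction, as the values below show, and a match in a window is a description of the letters and not evidence of binding.

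Across the network 1 of 10 members rose in cKO, none fell and 9 did not pass. Of all genes tested, 5.96% rose and 6.45% fell (12.4% together), so 1 in 10 is close to the background. Upper-quartile scaling turned the split of all calls from 959 higher and 1038 lower to 1191 and 764. The median log2 fold change of the 10 was 0.00 against 0.01 over all genes tested, with 5 members below 0 and 5 above. At an unadjusted p below 0.05 there were 4 members (Mxi1, Mga, Myc and Mnt), beside 29.1% of all genes. On the CPM scale every cKO library lay above every WT library in 3 members (Mxi1, Mga and Mxd4), which 17.2% of all genes did. In none did every cKO library lie below on that scale.

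**Figure D1:**
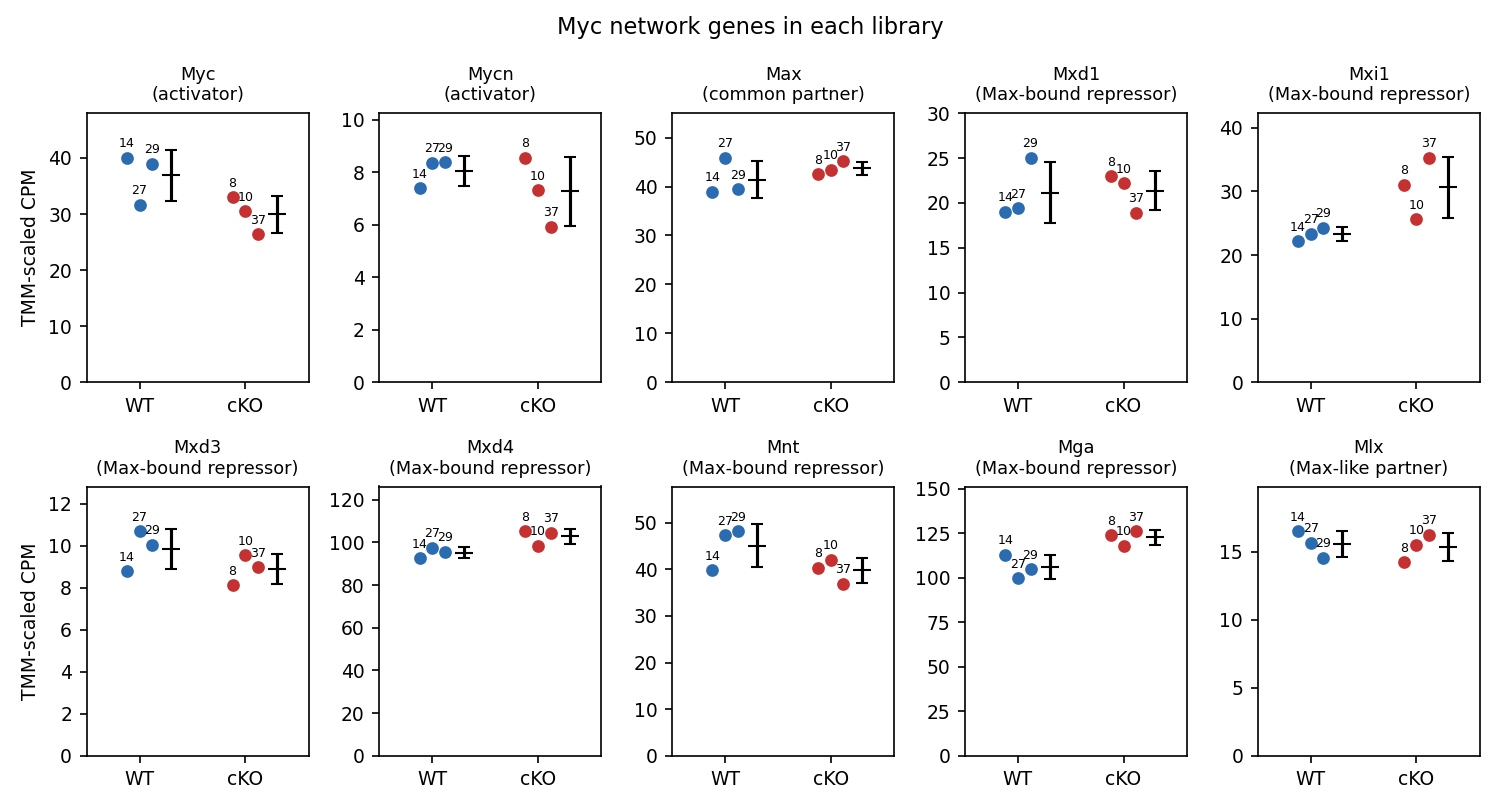
TMM-scaled CPM of the 10 genes in each library (points, numbered by library, WT in blue and cKO in red) beside the mean and SD of each group (n = 3), all axes starting at 0. The groups separate in Mxi1, Mxd4 and Mga, with cKO above, and Myc of WT 27 lies below cKO 8.

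The member that passed was Mxi1 (chromosome 19, 53310506 to 53375810), a Max-bound repressor of the Mxd family. Mxi1 stood at 22.2, 23.4 and 24.3 CPM in WT libraries 14, 27 and 29 and at 31, 25.7 and 35.3 for cKO libraries 8, 10 and 37. All 3 cKO libraries were above all WT libraries, cKO 10 by a small margin and cKO 37 by the most, and the cKO group was the more spread. The means were 23.3 ± 1.05 and 30.7 ± 4.82 CPM, a 1.32-fold difference (log2 0.40 ± 0.10, 95% confidence interval 0.17 to 0.63, edgeR adjusted p = 0.0357). The rise kept its sign in all 15 alternatives, but its call was lost without any library except cKO 10 (adjusted p = 0.0665 to 0.119) and with an offset for the GC content and length of genes (0.0744). RefSeq gives Mxi1 3 start windows, which the gene count does not separate. In bulk tissue such as this, more cells that carry a transcript and more transcript per cell cannot be told apart.

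Myc (chromosome 15, 61985341 to 61990361), the network's best known activator and an early-response gene of growth signals, did not pass. Its values were 40.0, 31.6 and 39.0 CPM in WT libraries 14, 27 and 29 and 33.0, 30.5 and 26.4 for cKO libraries 8, 10 and 37. WT 27 was low for its group and lay between cKO 8 and cKO 10, so the groups overlapped on this scale. The means were 36.9 ± 4.57 against 29.97 ± 3.31 CPM (log2 -0.30 ± 0.11, 95% confidence interval -0.54 to -0.06, edgeR adjusted p = 0.0947). On the authors' RPKM scale, which divides by another library total, Myc ran from 10.3 to 12.1 in WT and from 8.44 to 9.77 in cKO with no overlap. The share of all genes without overlap on the RPKM scale was not counted. Without WT 27 the difference was -0.40 and passed (adjusted p = 0.0295), and DESeq2 also called it (0.0426), whereas without WT 14, WT 29 or cKO 37 it was -0.24, -0.26 and -0.22 (adjusted p = 0.233, 0.245 and 0.187).

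Mycn (chromosome 12, 12936093 to 12941836), the paralogue best known from embryonic and neural progenitors, was measured at 7.38, 8.36 and 8.37 CPM in WT libraries 14, 27 and 29 and at 8.55, 7.32 and 5.93 for cKO libraries 8, 10 and 37. Both the highest and the lowest library were cKO (log2 -0.15 ± 0.14, edgeR adjusted p = 0.506). The third paralogue, Mycl, listed under its older symbol Mycl1, had 48 to 78 counts in a library.

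Max (chromosome 12, 76937269 to 76962248), the common partner, was 39, 45.9 and 39.5 CPM in WT libraries 14, 27 and 29 and 42.5, 43.5 and 45.2 for cKO libraries 8, 10 and 37. The cKO libraries lay close together inside the WT range (log2 0.08 ± 0.07, 95% confidence interval -0.08 to 0.24, edgeR adjusted p = 0.516).

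The other repressors that pair with Max gave mixed values. Mxd4 (chromosome 5, 34176580 to 34187710) was 92.5 to 97.5 CPM in WT and 98.5 to 105 in cKO, without overlap but with a small difference that did not pass (log2 0.11 ± 0.06, edgeR adjusted p = 0.23). On the authors' RPKM scale the Mxd4 groups overlapped, at 56.7 to 64.5 in WT and 63.2 to 67.9 in cKO. Mnt (chromosome 11, 74830924 to 74845725), the most widely expressed Max-bound antagonist of Myc, was 39.9, 47.3 and 48.2 CPM in WT libraries 14, 27 and 29 and 40.3, 42.1 and 37 for cKO libraries 8, 10 and 37 (log2 -0.18 ± 0.08, edgeR adjusted p = 0.167). WT 14 lay among the cKO libraries. Mxd3, known from proliferating cells, had 8.77 to 10.7 CPM in WT and 8.11 to 9.54 in cKO (log2 -0.15 ± 0.11, edgeR adjusted p = 0.403). Mxd1, the founding member of the family, had 19 to 25 CPM in WT and 18.9 to 23 in cKO (log2 0.01 ± 0.12, edgeR adjusted p = 0.96), and its sign depended on which libraries were used. Within the Mxd family, then, Mxi1 was the member whose difference passed, but the differences between members were not tested against one another.

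Mga (chromosome 2, 119897228 to 119969581) was just outside the threshold. It stood at 113, 99.7 and 105 CPM in WT libraries 14, 27 and 29 and at 124, 118 and 126 for cKO libraries 8, 10 and 37. Each cKO library was above each WT library (106 ± 6.74 against 123 ± 4.22 CPM, log2 0.21 ± 0.06, 95% confidence interval 0.07 to 0.35, edgeR adjusted p = 0.0505). It passed with upper-quartile scaling (0.0324), a mean CPM of at least 1 (0.042), DESeq2 (0.03), halved counts (0.0462) and without WT 14 (0.26, 0.0456), and not without any other library (0.0771 to 0.175). With the offset for the GC content and length of genes the difference shrank to 0.09 (adjusted p = 0.289). Mga has the longest deposited transcript length of the network, 13931 bases.

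Mlx (chromosome 11, 101087290 to 101092207) was 14.6 to 16.5 CPM in WT and 14.3 to 16.3 in cKO, nearly the same range (log2 -0.02 ± 0.08, 95% confidence interval -0.20 to 0.16, edgeR adjusted p = 0.901). Its partner Mlxip had 87.7 to 94.5 CPM in WT and 75.1 to 90.6 in cKO, where cKO 37 was the lowest (log2 -0.11 ± 0.08, edgeR adjusted p = 0.395). The other partner, Mlxipl, a factor of liver and fat, had 20 to 68 counts in a library and an interval of -0.87 to 1.18 on the log2 scale, too wide to show a difference of either sign. Reads were counted without a stated strand setting, and in the GENCODE M21 annotation exons of Mlx share 385 bases with Psmc3ip on the opposite strand, Mxd4 514 with Gm42846, Mxi1 194 with Gm10197 and Mxd3 105 with Prelid1. Without the strand setting, it is not known to which gene reads from those stretches were assigned.

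**Figure D2:**
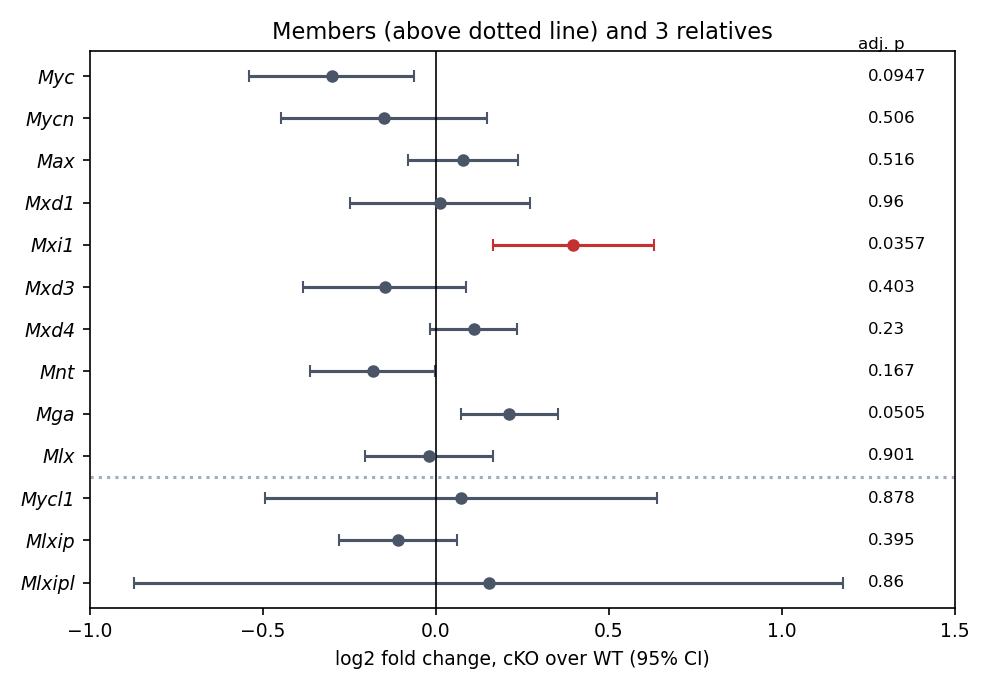
Log2 fold change, cKO over WT, with its 95% confidence interval from the edgeR model and the adjusted p, for the 10 members and, below the dotted line, the relatives Mycl1, Mlxip and Mlxipl (n = 3 libraries per group). The red point, Mxi1 at 0.40, passed the threshold, and the interval of Myc, -0.54 to -0.06, excluded 0 although its adjusted p was 0.0947.

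Because Myc and Mxi1 pull in opposite directions on the same partner, their counts were also set against each other within a library, where scaling plays no part. The ratio of Myc to Mxi1 counts was 1.8, 1.35 and 1.61 in WT libraries 14, 27 and 29 and 1.06, 1.19 and 0.749 for cKO libraries 8, 10 and 37. Every WT library had more Myc than Mxi1 counts by a wider margin than any cKO library, and in cKO 37 the order was turned. The ratio of Myc to Max counts overlapped, at 0.69 to 1.03 in WT and 0.585 to 0.776 in cKO. Overlap was also seen for Myc to Mnt, at 0.6685 to 1.003 in WT and 0.716 to 0.819 in cKO. The same held for Mxi1 to Max, at 0.509 to 0.615 in WT and 0.59 to 0.78 in cKO. These ratios combine chosen members and were given no test. Myc and Mxi1 had the lowest and the highest log2 fold change of the 10 members (-0.30 and 0.40).

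Levels of different genes can be compared only per length, here on the authors' RPKM. In WT the order of mean RPKM ran from Mxd4 (60.1 ± 4.01) through Max (15.4 ± 2.12), Myc (11.4 ± 0.959), Mnt (7.33 ± 0.927), Mlx (5.87 ± 0.436), Mga (5.64 ± 0.197), Mxd3 (5.64 ± 0.768), Mxd1 (3.37 ± 0.491) and Mxi1 (3.08 ± 0.203) to Mycn (2.31 ± 0.233). Myc thus lay below its partner Max and above Mycn on this scale. Neighbours whose WT libraries overlapped were Mlx and Mga, Mga and Mxd3, and Mxd1 and Mxi1, and the other neighbours were apart. In cKO, Mxi1 (4.08 ± 0.661) and Mga (6.59 ± 0.316) each stood higher in the order than in WT, but the libraries of Mxi1 overlapped with those of Mxd1 and the libraries of Mga with those of Mnt. The place of Mxd4 depends on the deposited length of 1179 bases, while its exons in GENCODE M21 cover 8483 bases, and what this does to its RPKM was not tested. Mlxip was 8.95 ± 0.645 RPKM in WT, and Mycl1 and Mlxipl were 0.174 ± 0.0377 and 0.112 ± 0.0839.

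**Figure D3:**
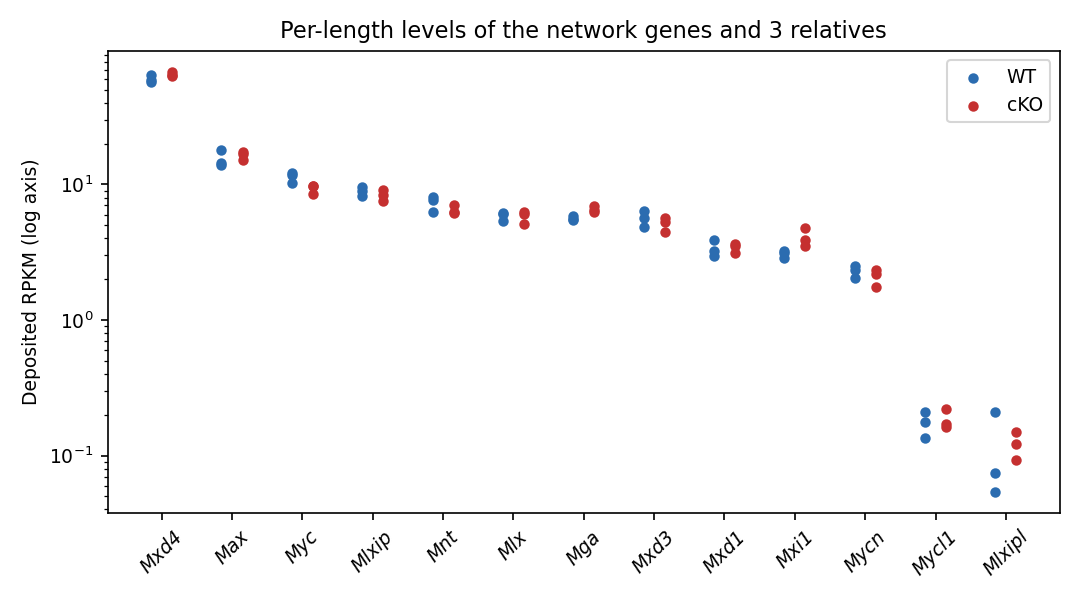
Deposited RPKM on a log axis for the 10 members and 3 relatives in the 6 libraries (blue WT, red cKO), ordered by the WT mean. Mxd4 lies between 56.7 and 67.9 in all libraries, Mycl1 and Mlxipl lie below 0.22 or at it, and the remaining genes span 1.75 to 17.9.

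The genes whose pattern over the 6 libraries was most like that of Myc, by Pearson's r of log2 CPM among 9965 genes of sufficient level, were Mia3 (0.992), Xpo1 (0.992), Ndrg4 (0.991), Lman1 (0.991) and Glud1 (0.986). For Mxi1 they were Fndc3a (0.999), Nsmaf (0.994), Rbm18 (0.993), Abca1 (0.99) and Tlr4 (0.99). The 6 points share group, depth and scaling, and the values are a description.

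Many genes known from other systems to be activated by Myc were lower in cKO, and none was higher past the threshold. Of 73 such genes, all of which were tested, 35 fell, none rose and 38 did not pass, beside 6.45% of all genes that fell. The list's median log2 fold change was -0.24, and 66 of its 73 genes had a value below 0, against 48.7% of all genes. In 48 of them every cKO library lay below every WT library, which 17.4% of all genes did. Of these 73 targets, 24 fell under upper-quartile factors and 29 under the offset, but the number was smaller without WT 14 (17), WT 29 (11) or cKO 8 (10). No target rose under any alternative, and the list median stayed between -0.27 and -0.21. The list was written from general knowledge with earlier results of these data known.

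By role, assigned after the values were seen, 15 of 32 nucleolar and ribosome assembly genes, 7 of 14 metabolism and transport genes, 5 of 8 mitochondrial and chaperone genes, 4 of 10 cell cycle and DNA genes and 4 of 9 others fell. Srm, the spermidine synthase, fell from 77.9 ± 3.43 to 46.8 ± 3.3 CPM (log2 -0.74 ± 0.07, edgeR adjusted p = 0.000764). Odc1, the rate-limiting enzyme of polyamine synthesis and a classical Myc target, was 171, 152 and 172 CPM in WT libraries 14, 27 and 29 and 112, 114 and 99.1 for cKO libraries 8, 10 and 37. The Odc1 groups were far apart, and it fell by 0.61 ± 0.07 on the log2 scale (edgeR adjusted p = 0.00164). Bcat1, an aminotransferase of branched-chain amino acids, fell by 0.53 ± 0.10 and Cad, which starts pyrimidine synthesis, by 0.51 ± 0.11 (edgeR adjusted p = 0.00953 and 0.0236).

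Among the ribosome assembly genes, Tcof1, a nucleolar factor of ribosomal RNA transcription, fell by 0.41 ± 0.07 and Grwd1, a ribosome assembly and histone chaperone, by 0.54 ± 0.12 (edgeR adjusted p = 0.00604 and 0.0151). Farsa, the catalytic subunit of phenylalanyl-tRNA synthetase, fell by 0.33 ± 0.06 (0.00593). Ncl, which encodes nucleolin, was at 0.03 ± 0.07 and Npm1, which encodes nucleophosmin, at 0.13 ± 0.08 (adjusted p = 0.813 and 0.335). Srm, Odc1, Tcof1 and Farsa kept their calls under every alternative run, the call of Cad ended on leaving out WT 14, WT 29 or cKO 8 (0.0612 to 0.0793), and Grwd1 without WT 29 (0.0514). Bcat1, Cad, Grwd1, Ncl, Npm1, Nop2, Hspd1 and Cdk4 were named after their values were seen.

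**Figure D4:**
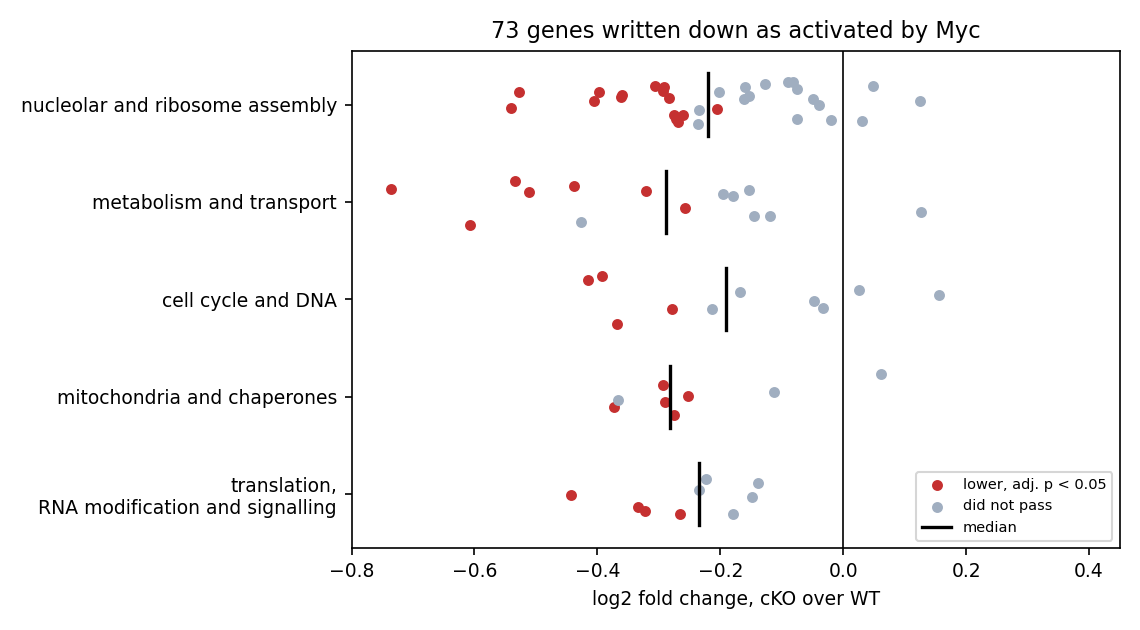
Log2 fold change, cKO over WT, of the 73 Myc-activated targets by role (red, fell past the threshold; grey, did not pass; black bar, median of the role; vertical scatter has no meaning). Points lie mostly left of 0 in all 5 roles, from -0.74 for Srm to 0.16 for the telomerase gene Tert.

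The share of targets that fell was similar with and without a promoter E-box, a comparison given with no test. Of the 66 targets with a RefSeq window, 18 (27.3%) held CACGTG, more than the 11.2% of tested genes with a window. The median GC content was 59.8% for the targets' windows and 52.7% for all windows. What this does to the share with CACGTG was not tested. Of the 18 targets with CACGTG, 8 fell (44.4%), and of the 48 without the motif in the window 23 fell (47.9%). Over all tested genes with a window, 8.8% of those with the motif and 7.1% of those without it fell. Sites can also lie in introns or farther upstream, which these windows do not cover. The sites of Nop2, a ribosomal RNA methyltransferase, Hspd1, the mitochondrial chaperonin, and Grwd1 show targets that fell, and that of Cdk4, the kinase of early G1, a target with 4 E-boxes that did not pass.
Nop2, chr6:125131811-125131840, plus strand: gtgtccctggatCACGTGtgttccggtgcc
Hspd1, chr1:55088306-55088335, minus strand: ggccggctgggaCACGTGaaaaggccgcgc
Grwd1, chr7:45830740-45830767, minus strand: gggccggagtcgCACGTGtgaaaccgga
Cdk4, chr10:127063512-127063541, plus strand: aagggtgaagatCACGTGtccagaacgtcc
Nop2 differed by -0.31 ± 0.07, Hspd1 by -0.28 ± 0.07 and Cdk4 by -0.17 ± 0.05 (edgeR adjusted p = 0.0179, 0.0237 and 0.0633), and Cdk4 passed with DESeq2 (0.0294). Leaving out WT 14, WT 29 or cKO 8 ended the calls of Nop2 and Hspd1, and leaving out cKO 10 that of Hspd1 (0.0525 to 0.0975).

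Of 9 genes known to be repressed by Myc, none rose and 2 fell, beside 5.96% and 6.45% of all genes: the stress gene Gadd45b (-0.81 ± 0.18) and the cell cycle inhibitor Cdkn1a (-0.21 ± 0.06; edgeR adjusted p = 0.041 and 0.0435). Ddit3 (-0.26 ± 0.08) and Gas1 (-0.17 ± 0.08) did not pass, with adjusted p of 0.0619 and 0.169, though Ddit3 did with DESeq2 (0.045) and with the offset (0.0366). The median of the list was 0.12. Without WT 27, 1 of the 9 genes rose, and without WT 29, cKO 8 or cKO 10 none fell. The call of Gadd45b ended without WT 29, cKO 8, cKO 10 or cKO 37 or with no low-count filter, that of Cdkn1a on leaving out any library but cKO 37 or with upper-quartile scaling, and both with the offset (0.0652 to 0.172).

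Of 18 genes for coactivators, the proteins through which Myc activates, 4 fell and none rose, beside the 6.45% background. Kat2a, the Gcn5 acetyltransferase, fell by 0.38 ± 0.06, Paf1, of the elongation complex of that name, by 0.33 ± 0.06, and the AAA ATPases Ruvbl1 and Ruvbl2 by 0.30 ± 0.07 and 0.29 ± 0.06 on the log2 scale (edgeR adjusted p = 0.00593, 0.00701, 0.0252 and 0.0152). Kat2a and Paf1 kept their calls under every alternative run, whereas Ruvbl1 and Ruvbl2 were both lost without WT 29 or cKO 8, Ruvbl1 also without WT 14 or cKO 10, and Ruvbl2 with the offset (0.0558 to 0.0983). Zbtb17, or Miz1, the partner through which Myc represses, was at -0.20 ± 0.08 (adjusted p = 0.106).

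Of 18 genes that set the stability of Myc protein, 5 fell and none rose, beside 6.45% and 5.96% of all genes. The kinases Pim3 and Pim1, which phosphorylate Myc, fell by 0.51 ± 0.06 and 0.46 ± 0.09 (edgeR adjusted p = 0.00155 and 0.00799). Set, an inhibitor of the phosphatase that acts on Myc, fell by 0.23 ± 0.06 and Usp36, a nucleolar deubiquitinase, by 0.28 ± 0.07 (0.0246 and 0.0282). The fifth was Stub1, a ubiquitin ligase (-0.22 ± 0.06, 0.0456). Fbxw7, the ubiquitin ligase subunit that marks Myc for destruction, was at -0.09 ± 0.09 (0.544). Pim1 and Pim3 passed under every alternative run. The call of Set ended without WT 14, WT 29, cKO 8 or cKO 10 (edgeR adjusted p = 0.0522 to 0.103). That of Usp36 ended without WT 27, WT 29 or cKO 8 (0.062 to 0.113). Stub1 was not followed by itself under the alternatives. Of the 18 genes, 2 fell without WT 29 or cKO 8 and 3 without WT 14 or cKO 10. Protein levels were not measured.

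Genes of the Sin3 corepressor, which Mxi1 and its relatives recruit, passed in both directions. Of 19 genes, 3 rose (Arid4a by 0.37 ± 0.06, Arid4b by 0.31 ± 0.06 and the scaffold Sin3a by 0.24 ± 0.05; edgeR adjusted p = 0.00636, 0.00854 and 0.0184) and the deacetylase Hdac2 fell by 0.23 ± 0.06 (0.043), beside backgrounds of 5.96% and 6.45%. Arid4a and Arid4b passed under every alternative run, the call of Sin3a ended on leaving out any library except cKO 37 (0.0514 to 0.0729), and that of Hdac2 likewise or under upper-quartile factors (0.0534 to 0.157). In the variant Polycomb complex that holds Mga, 2 of 13 genes rose and 1 fell (7.7%, beside 6.45% of all genes, and 5.96% that rose). Tfdp2, a dimer partner of E2f factors, rose by 0.56 ± 0.06 and the ubiquitin ligase Rnf2 by 0.28 ± 0.06 (0.00101 and 0.0122), Hdac2 was the one that fell, and Tfdp1 (-0.17 ± 0.06), Pcgf6 (0.08 ± 0.11) and E2f6 (-0.13 ± 0.09) did not pass (0.0731, 0.662 and 0.37), though Tfdp1 did with the offset (0.0411). Rnf2 was lost without cKO 8 (0.0514).

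Of 11 tested targets of the Mlx and Mondo pairs, 1 fell (9.1%) and none rose, near the 6.45% of all genes that fell. Acly, which makes cytosolic acetyl-CoA for lipid synthesis, fell by 0.22 ± 0.07 (edgeR adjusted p = 0.0466), a call lost without any library but cKO 10 and with upper-quartile scaling (0.0697 to 0.164). The glucose-responsive gene Txnip, the usual readout of Mondo activity, was at 0.01 ± 0.14 and its relative Arrdc4 at 0.30 ± 0.09 (adjusted p = 0.964 and 0.0654). The fatty acid synthase gene Fasn (-0.46 ± 0.14) and Klf10 (-0.47 ± 0.17) did not pass either (0.0796 and 0.12). Both passed with DESeq2 (0.00265 and 0.00433) and without cKO 37, where Fasn was at -0.30 and Klf10 at -0.70 (0.0142 and 0.000821). Fasn also passed with the offset (0.0499) and without cKO 10 (0.0408), and Arrdc4 with DESeq2 (0.0274) and without cKO 10 (0.0353).

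**Figure D5:**
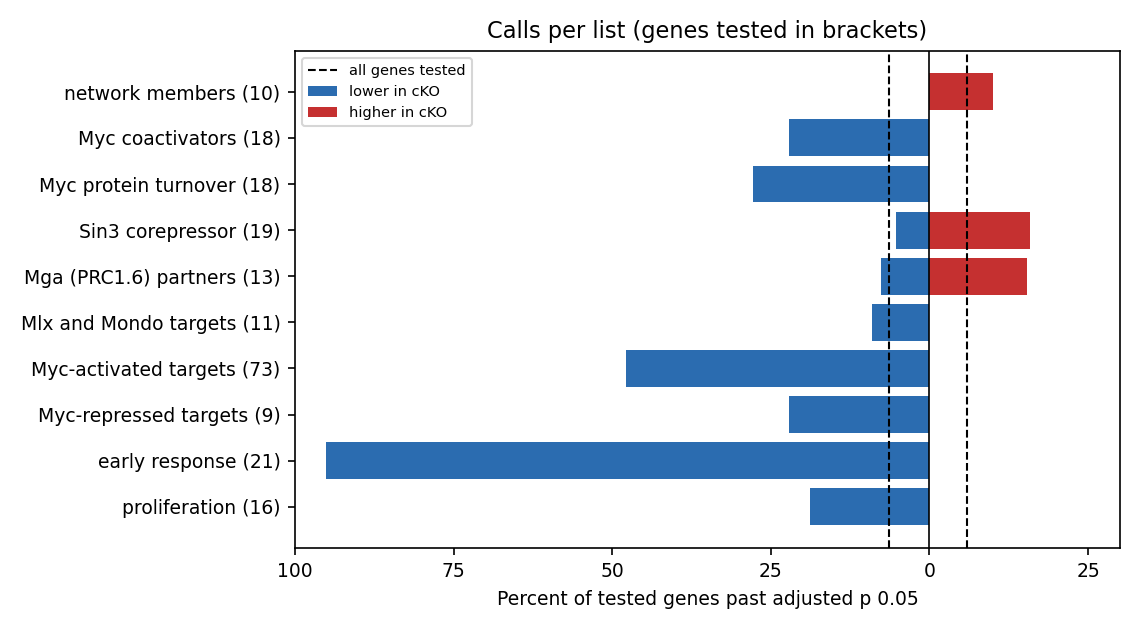
Percent of the tested genes of each list that fell (blue, left) or rose (red, right) past an adjusted p of 0.05, with the same percentages over all 16089 genes as dashed lines (6.45 and 5.96). The Myc-activated targets (47.9% lower) and the early-response genes (95.2% lower) lie farthest from the lines, and the network members themselves near them.

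Other gene groups moved with the same comparison, and their part in the values of Myc and its targets was not tested. Of 21 early-response genes, the class to which Myc belongs in freshly stimulated cells, 20 fell and none rose, with a median of -0.74. Over all genes tested, 6.45% fell and 5.96% rose. Among the early-response genes Atf3 fell by 1.49 ± 0.12, Csrnp1 by 1.30 ± 0.11, Socs3 by 0.89 ± 0.09 and Ier2 by 0.72 ± 0.06 (edgeR adjusted p = 0.000764, 0.00112, 0.000831 and 0.000764). Between 16 and 20 of the early-response genes fell under the alternatives. Of 16 proliferation genes 3 fell (18.8%, beside 6.45% of all genes) and none rose. The 3 were Pcna (-0.24 ± 0.06), Bub1b (-0.22 ± 0.06) and Tpx2 (-0.22 ± 0.06; edgeR adjusted p = 0.0241, 0.0305 and 0.0446). Top2a did not pass (-0.21 ± 0.07, 0.0562). The call of Bub1b ended on leaving out any library, that of Pcna on leaving out any except cKO 37, and that of Tpx2 on leaving out any except cKO 10 or with upper-quartile factors (0.0518 to 0.13). Top2a passed without WT 27 (0.0474), with no low-count filter (0.0476), DESeq2 (0.0291) and the offset (0.00892).

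Markers of other cells in the bone were read as whole lists. As background, 6.45% of all genes tested fell and 5.96% rose. The summed CPM of 10 myeloid and osteoclast markers was 2146 to 2826 in WT and 1768 to 1996 in cKO, without overlap. Most of each sum came from Ctsk, whose groups overlapped and which did not pass (edgeR adjusted p = 0.162). In this list 2 of 9 tested genes fell (22.2%), with 7 log2 values below 0 and 2 above. Those that fell were the osteoclast phosphatase Acp5 (-0.56 ± 0.12) and the receptor Csf1r (-0.43 ± 0.10; edgeR adjusted p = 0.0172 and 0.0191). Both calls were lost without cKO 8 or cKO 37 (0.0544 to 0.085). Sums of 12 osteoblast markers ran from 132600 to 180100 in WT and from 99100 to 134900 in cKO, and overlapped. Most of each sum came from Col1a1 and Col1a2, which did not pass (edgeR adjusted p = 0.115 and 0.359). Of the 12 genes, 2 fell (16.7%) and none rose, with 8 log2 values below 0 and 4 above. Sums of endothelial (637 to 722 and 663 to 812) and of fibroblast and suture markers (17480 to 18280 and 16020 to 20530) overlapped, with 0 of 8 and 1 of 8 genes past the threshold, the latter higher. Chondrocyte sums overlapped widely (2397 to 8905 in WT, 862 to 6963 in cKO). The lymphoid markers Ms4a1, Vpreb1, Cd3e and Cd3g, and Hba-a1, Hba-a2, Mpo, Elane, Myh3 and Ckm were below 0.1 CPM in at least 1 library. Erythroid sums were 27.8 to 47.9 and 35.3 to 58.1, and those of muscle and nerve 32.5 to 38.5 and 30.01 to 35.6, with 1 of 7 genes lower.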

How the data were processed

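Calvarial RNA from 3 WT and 3 cKO mouse libraries was sequenced. Per the submitters' processing notes, the authors used bcl2fastq, TopHat2 2.0.6 and HTSeq with mm10. Which gene annotation and strand setting they used is not stated in those notes or the labels. The deposited counts are reads per gene, and every one is even (0 odd counts). The main fit used them as deposited, and on halved counts 2 members passed. The RPKM values deposited by the authors, counts per kilobase scaled to library size, were used only for levels between genes. From the counts, edgeR 4.0.16 in R 4.3.3 kept 16089 genes (filterByExpr, minimum count 10), scaled them by TMM (factors 0.952 to 1.07) and fitted a robust quasi-likelihood test, with Benjamini-Hochberg adjustment over all genes and a threshold of 0.05. Pairs of libraries of 1 group differed well beyond counting noise (chi-square per degree of freedom 26.4 to 60 on halved counts).

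The genes to be named were all members, Mycl, Mlxip, Mlxipl, Ezh2, up to 4 genes with the smallest p of each list, and the 5 genes most like Myc and most like Mxi1. Other genes named (Bcat1, Cad, Grwd1, Nop2, Hspd1, Cdk4, Ncl, Npm1, Tert, Txnip, Fbxw7, Zbtb17, Pcgf6, E2f6, Stub1, Csf1r, Acp5, Ctsk, Col1a1 and Col1a2) were chosen after their values were seen. The members and lists were chosen with earlier results of these data known. Older symbols (such as Mycl1 for Mycl) were matched through RefSeq. Alternatives were upper-quartile or RLE factors, a filter at a mean CPM of 1 or none, DESeq2 1.42.0, limma 3.58.1 voom, a threshold of 0.1, halved counts, a GC and length offset (98% of genes had a GC value), and each library left out. The steps were tested on simulated data. The summed level of the lymphoid markers is not reported here.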

Additional observations from a re-analysis of the deposited data

How the results depend on the processing

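The 15 alternatives comprised 9 with all 6 libraries and 6 that each left out 1. No paired analysis was possible because the WT and cKO libraries share no label number. The members past the threshold numbered 2 with upper-quartile factors, a mean CPM of at least 1 or halved counts, 3 with DESeq2 (16.2% of all genes) or a threshold of 0.1 (20.4%), 0 with the GC and length offset, and 0 to 1 with a library left out, where the 1 was Mga without WT 14, Myc without WT 27 and Mxi1 without cKO 10. Over all genes the number was 3277 at a threshold of 0.1 and 586 to 1985 with a library left out, and for Myc-activated targets 10 to 31. Myc passed with DESeq2 (-0.3034) and at 0.1 (-0.3006), and ranged from -0.4038 to -0.2209 with a library left out. Mxi1 did not pass with the offset (0.3424) and ranged from 0.2799 to 0.503. Mga passed with upper-quartile factors (0.2407), a mean CPM of at least 1 (0.2215), DESeq2 (0.2102), halved counts (0.2162) and at 0.1 (0.2132), and ranged from 0.1667 to 0.262, passing without WT 14. Signs changed for Mlx with upper-quartile factors (0.0072), Txnip with limma voom (-0.0058) and Ncl with the offset (-0.0662). With a library left out they changed for Mxd1 (-0.0598 to 0.1518), Mlx (-0.0679 to 0.0301), Mycl1 (-0.0601 to 0.182), Mlxipl (-0.1584 to 0.8705), Txnip (-0.1405 to 0.1345) and Ncl (-0.0162 to 0.0585). Of 957 gene values under alternatives, 825 kept their direction and side of the threshold. Apart from what fewer libraries or a wider threshold do by construction, the cause was not tested.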
